A study of Mus musculus with 20 samples.

Results

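Ccr2, Plac8, Ms4a6c, Ly6c2, Lyz2, Ctss, Fcgr4, Itgam, Chil3, and S100a4 were followed in the left ventricle of the heart across 4 diets, as genes of monocytes and of the macrophages that arise from them. They are 10 of the 15956 genes counted. Ctss and Ms4a6c were chosen by their values in high-fat compared to normal protein mice, and the other genes were listed as markers of monocytes and macrophages when results of these mice were already known. Each group held 5 male mice, which the labels give as 18 months old and the study's methods as younger. The NP diet held normal protein and served as the control, and the LP diet held low protein. The HF diet was rich in fat at the protein content of NP, and the HF + LP diet was rich in fat at the protein content of LP. Casein was the protein of all 4 diets. The labels name no strain, allele, or drug, and diet is the one treatment they give.

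Monocytes are made in the bone marrow and released into blood with the help of the chemokine receptor CCR2, which binds CCL2 and related chemokines. Classical mouse monocytes carry Ly6C on their surface. Those that enter the heart can become macrophages beside the resident cells, some of which descend from cells seeded before birth. Cathepsin S, the product of Ctss, is a cysteine protease of the lysosome that trims the invariant chain (Cd74) from MHC class II in antigen-presenting cells, and it also stays active outside cells, where it can cut elastin.

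Sequences around a start site of Ctss, Fcgr4, and Ccr2 are shown. Ctss and Fcgr4 were the members whose 300-base promoter windows held the core of an interferon-stimulated response element (ISRE). Ccr2 was the member that was not lower in HF + LP than in HF. All 10 genes were found in the RefSeq promoter table of GRCm38.p6, with windows from 250 bases before to 50 after a start site, searched on both strands. Capitals mark the ISRE core, written GAAA, any 2 bases, and GAAA, which 3.44% of all 32851 windows held, and GAGGAA or its complement TTCCTC, the core bound by the myeloid factor PU.1, which 28.3% held.
Ctss, chr3:95526536-95526835, plus strand: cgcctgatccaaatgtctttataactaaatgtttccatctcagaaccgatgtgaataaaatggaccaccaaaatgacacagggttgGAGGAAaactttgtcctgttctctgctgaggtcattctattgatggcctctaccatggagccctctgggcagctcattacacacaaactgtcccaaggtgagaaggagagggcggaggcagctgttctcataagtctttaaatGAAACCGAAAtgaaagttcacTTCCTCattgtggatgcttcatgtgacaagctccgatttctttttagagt
Fcgr4, chr1:171018676-171018975, plus strand: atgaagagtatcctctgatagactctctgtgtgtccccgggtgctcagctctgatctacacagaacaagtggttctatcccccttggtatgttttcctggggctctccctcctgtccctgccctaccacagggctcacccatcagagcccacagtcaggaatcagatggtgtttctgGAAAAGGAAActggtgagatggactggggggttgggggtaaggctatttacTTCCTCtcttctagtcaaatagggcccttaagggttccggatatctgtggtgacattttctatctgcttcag
Ccr2, chr9:124101933-124102232, plus strand: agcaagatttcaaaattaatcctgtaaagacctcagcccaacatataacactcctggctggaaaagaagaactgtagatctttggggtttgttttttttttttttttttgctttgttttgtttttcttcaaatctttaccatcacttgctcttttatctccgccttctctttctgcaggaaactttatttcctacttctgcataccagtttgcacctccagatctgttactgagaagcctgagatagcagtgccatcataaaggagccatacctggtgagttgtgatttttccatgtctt
The Ctss window held the PU.1 core on both sides of its ISRE core, and the Fcgr4 window held each core once. The Ccr2 window held neither set of letters, and nor did those of Lyz2, Ms4a6c, and Chil3. The Ccr2 window begins at 124101933, and GENCODE starts the gene at 124101950, so most of that window lies inside the gene. The windows of Ctss and Fcgr4 lie mostly before their GENCODE starts, so these are unlike regions. The PU.1 core was also in the windows of Itgam, Ly6c2, S100a4, and 1 of the 2 windows of Plac8. A match is a run of letters and not a bound site.

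The libraries were QuantSeq libraries, which count the 3′ end of each transcript, so longer transcripts do not gain reads for their length. Totals ran from 12559607 to 23331907 reads per mouse. Normalized counts are reads divided by a library's TMM-scaled size, and the base mean is their average over the 20 mice. Cardiomyocyte markers summed to between 520100 and 812230 normalized counts in every mouse. Some libraries stood apart from the rest. LP mouse 20 had 3602 summed normalized counts of lymphocyte markers, against 53.1 to 187 in the other mice. LP mouse 13 had the lowest median correlation with its group, 0.908, and the highest adipocyte sum, 11196. Atrial markers summed to over 50000 in NP mouse 5, LP mice 13 and 15, HF mice 1 and 3, and HF + LP mouse 3. In heart tissue as a whole, fewer cells of a type and less RNA per cell cannot be told apart.

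Ccr2 (chromosome 9, 124101950 to 124113557 on GRCm38), the receptor that draws monocytes out of marrow and into tissue, had its highest group mean in HF + LP and was not called in any comparison. In NP mice it had 52.5, 70.5, 72.6, 93.9, and 101 normalized counts, and in LP mice 61.6, 69.3, 86.5, 97.5, and 103. In HF mice it had 78.8, 107, 109, 133, and 137, and in HF + LP mice 105, 119, 119.8, 123, and 153. NP and LP ranges overlapped, every HF + LP mouse lay above every NP and LP mouse, and 1 HF mouse fell among the NP values. Group means were 78.1 ± 19.5 (NP), 83.5 ± 17.7 (LP), 113 ± 23.4 (HF), and 124 ± 17.8 (HF + LP), each with its SD over 5 mice.

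Plac8 (chromosome 5, 100553725 to 100572245), a small cysteine-rich protein of monocytes and other leukocytes, and Ly6c2 (chromosome 15, 75108158 to 75111970), which encodes the Ly6C antigen of classical monocytes, were low and widely spread. Plac8 had 6.60, 13.1, 14.6, 19.1, and 19.2 normalized counts in NP, and 7.98, 13.9, 17.4, 51.6, and 137 in LP. It had 14.0, 42.2, 68.1, 91.5, and 142 in HF, and 5.34, 12.4, 17.7, 37.1, and 39.2 in HF + LP. Of the 5 HF mice 4 lay above every NP mouse, and the 2 highest LP values belonged to LP mice 20 and 13, which stood apart as whole libraries. Ly6c2 had 9.05, 12.1, 13.1, 13.1, and 13.8 in NP, and 10.7, 11.3, 12.0, 19.5, and 61.7 in LP. It had 6.36, 21.8, 38.2, 52.8, and 57.5 in HF, and 8.55, 9.28, 10.4, 22.4, and 23.8 in HF + LP. The HF values of Ly6c2 ran both below and above those of NP, and HF mouse 1 had the lowest count of all 20 mice, and the highest LP value was again that of LP mouse 20.

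Ms4a6c (chromosome 19, 11469366 to 11482192), a membrane protein of the MS4A family found on monocytes and macrophages, was higher in each HF mouse than in each NP or LP mouse. It had 70.5, 75.8, 78.8, 88.0, and 113 normalized counts in NP, and 53.2, 58.5, 88.7, 96.1, and 102 in LP. It had 122, 132, 186, 205, and 283 in HF, and 87.7, 107, 107, 122, and 160.15 in HF + LP. HF + LP mice overlapped NP mice at one end and HF mice at the other, with means of 117 ± 27.1 in HF + LP, 85.2 ± 16.7 in NP, and 186 ± 64.8 in HF (SD, n = 5). Chil3 (chromosome 3, 106147554 to 106167564), a chitinase-like protein of monocytes and alternatively activated macrophages, was close to the floor of detection, at 0 to 17 raw reads per mouse. One mouse each of NP, LP, and HF had 0 reads, which allows up to 3, and Chil3 did not pass the filter on low counts, so it has no fold change here.

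Among genes of the differentiated cell, Fcgr4 (chromosome 1, 171018920 to 171029761), an activating Fc receptor of nonclassical monocytes and macrophages, had 5.97, 11.3, 13.2, 15.5, and 15.7 normalized counts in NP, and 3.08, 12.0, 16.4, 16.5, and 23.9 in LP. It had 8.90, 22.7, 46.8, 60.6, and 63.4 in HF, and 12.5, 12.8, 20.0, 22.7, and 25.8 in HF + LP. HF mouse 1 lay within the NP range, and the 3 highest HF mice lay above all mice of the other diets. Itgam (chromosome 7, 128062640 to 128118491), the CD11b chain of the integrin that myeloid cells use to adhere and take up complement-coated particles, had 14.3, 26.3, 35.3, 40.6, and 61.1 in NP, and 14.4, 25.3, 35.3, 38.0, and 42.8 in LP. It had 26.4, 30.3, 53.4, 55.0, and 76.7 in HF, and 28.0, 28.8, 36.1, 40.6, and 43.7 in HF + LP. Its 4 groups overlapped throughout.

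Lyz2 (chromosome 10, 117277331 to 117282321), the lysozyme of macrophages and neutrophils, was the most abundant member, with a base mean of 2417. It had 1798, 1959, 2041, 2214, and 2236 normalized counts in NP, and 1528.5, 1792, 2003, 2667, and 2934 in LP. It had 2674, 2895, 2990.1, 3052, and 3087 in HF, and 1863.5, 2371, 2553, 2618, and 3073 in HF + LP. HF mice lay above all NP mice, while LP and HF + LP mice spread across both. S100a4 (chromosome 3, 90603771 to 90606045), a calcium-binding protein of migrating macrophages and fibroblasts, had 207, 236, 300.4, 323, and 338 in NP, and 161, 174, 260.5, 261, and 347 in LP. It had 286, 308, 323, 359.9, and 371 in HF, and 158, 249.5, 262, 293, and 310.2 in HF + LP. Its groups overlapped, and HF mouse 1, which was lowest among HF mice for Ccr2, Plac8, Ly6c2, Fcgr4, Ctss, and Lyz2, was the highest for S100a4.

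Ctss (chromosome 3, 95526786 to 95556403) had the narrowest NP group for its level among the members. It had 269.7, 273, 299, 299, and 302 normalized counts in NP, and 249, 266, 306, 403, and 443 in LP. It had 390.3, 515, 626, 629.8, and 633 in HF, and 329, 351, 395, 421, and 504 in HF + LP. Group means were 288 ± 15.7 (NP), 334 ± 85.6 (LP), 559 ± 106 (HF), and 400 ± 68.4 (HF + LP), each with its SD over 5 mice. HF and HF + LP mice each lay above all NP mice, HF + LP overlapped LP, and HF mouse 1 was the single HF mouse within the HF + LP range.

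**Figure D1:**
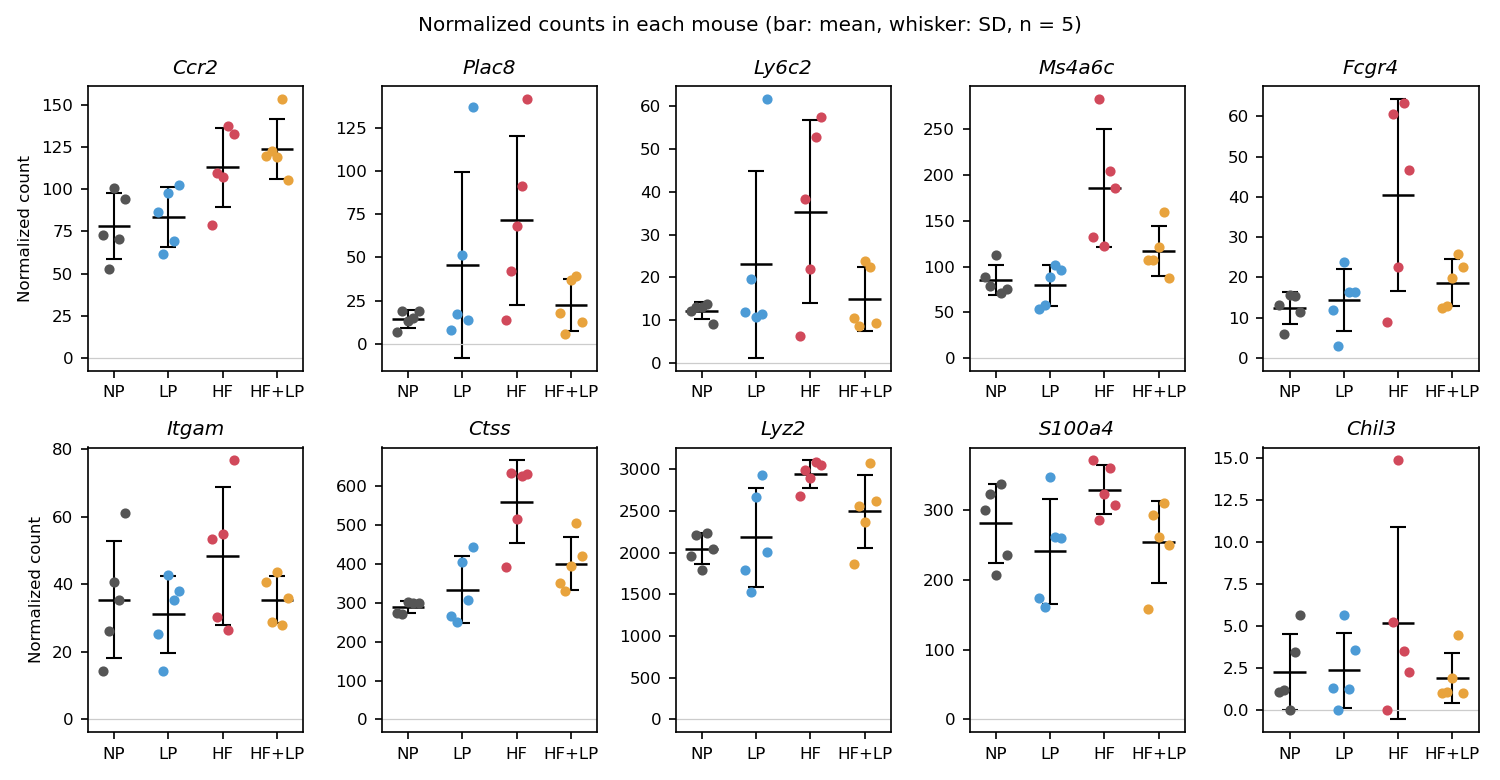
Normalized counts (vertical axes, each starting near 0 with its own scale) of the 10 genes in each mouse by diet group, with the mean and SD of 5 mice. Ctss, Ms4a6c, and Lyz2 have HF points above all NP points, and Ccr2 has HF + LP points above all NP and LP points.

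High fat at normal protein is the comparison whose values chose Ctss and Ms4a6c, so its values are a description, and calls made in it are no evidence about the members. All 9 members that passed the filter were higher in HF than in NP, with a median log2 fold change of 0.95 against −0.0011 over the 13991 genes tested. The largest was that of Plac8, 2.31 (standard error 0.70), followed by Fcgr4 at 1.702 (0.47), Ly6c2 at 1.54 (0.54), Ms4a6c at 1.13 (0.23), and Ctss at 0.95 (0.16). Ccr2, Lyz2, Itgam, and S100a4 differed by 0.54, 0.52, 0.45, and 0.23. A call required an adjusted p below 0.01 together with a base mean above 50. Of all genes 10159 had such a base mean, and of the members Ccr2, Ms4a6c, Lyz2, Ctss, and S100a4 did. The rule drew on this comparison, so the number of members called is fixed in part by the choice of genes and nothing is read from it: Ctss was called, beside 0.264% of all genes. That call was lost without any one of NP mice 3, 4, 5, 6, and 8 or HF mice 2, 4, and 5, and with the animal number as a block, while the fold change of Ctss stayed between 0.91 and 1.06 with each mouse left out. Ctss, Ms4a6c, and Lyz2 were the 3 members with every HF mouse above every NP mouse, as were 2.07% of all genes. The 3 largest fold changes belonged to genes with base means under 50, which could not be called.

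Low protein within high fat (HF + LP compared to HF) asks whether less protein changes these genes when fat is high, and it shares the HF mice with the comparison above. A total of 8 of the 9 members tested were lower in HF + LP, with a median log2 fold change of −0.48 against 0.02 over all genes, and Ccr2 was the exception at 0.13 (standard error 0.19). The values were −1.69 (0.66) for Plac8, −1.25 (0.52) for Ly6c2, −1.11 (0.45) for Fcgr4, −0.67 (0.23) for Ms4a6c, and −0.48 (0.16) for Ctss. Itgam, S100a4, and Lyz2 had −0.45, −0.37, and −0.24. No member was called, as no gene was (0.0%), by edgeR's quasi-likelihood test, and DESeq2 called no member and 13 genes. At an unadjusted p under 0.05 edgeR had 5 members and 677 genes, and the smallest adjusted p among members was 0.580, for Ctss. No member had all HF + LP mice below all HF mice, where 0.636% of all genes did.

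HF mouse 1, whose Ctss, Fcgr4, and Ly6c2 counts lay within or below the HF + LP range, carried an atrial marker sum of 207250, and its sum of interferon-induced genes, 4315, was the lowest in HF. Without the 6 mice of high atrial sums, a setting chosen after their values were seen, the HF + LP compared to HF differences were −0.66 for Ctss, −0.97 for Ms4a6c, −2.32 for Plac8, and −0.02 for Ccr2, and no member was called. The part of atrial tissue in these differences was not tested.

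Markers of other cells of the heart moved with the same groups. All 7 fibroblast markers were higher in HF than in NP and lower in HF + LP than in HF, with medians of 0.29 and −0.30, and their summed normalized counts ran from 15935 to 19228 in NP, 17776 to 22809 in HF, and 15006 to 19227 in HF + LP. Of 7 cardiomyocyte markers 6 were lower in HF than in NP and 6 were higher in HF + LP than in HF, with medians of −0.20 and 0.17. Their sums ran from 706210 to 812230 in NP, 564830 to 719840 in HF, and 560730 to 807790 in HF + LP. Erythroid markers, the globins and Alas2 of red blood cells, were higher in 5 of 5 in both comparisons, with medians of 0.58 and 0.24, and summed to between 60801 and 178250 in NP, 102190 and 223500 in HF, and 82070 and 313600 in HF + LP. All 5 atrial markers were higher in HF than in NP and lower in HF + LP than in HF, with medians of 1.29 and −1.295, and sums from 3009 to 61661 in NP, 2251.5 to 207250 in HF, and 1596 to 88739 in HF + LP. Of 7 adipocyte markers 5 were lower in HF than in NP, with a median of −0.19, and 7 were lower in HF + LP than in HF, with a median of −1.57. Their sums ran from 23.6 to 822 in NP, 11.4 to 1730 in HF, and 12.3 to 379 in HF + LP. None of the markers of these 5 lists was called in either comparison. The share of reads from mitochondrial genes ran from 41.3% to 47.1% in NP, 35.4% to 44.5% in LP, 38.1% to 39.8% in HF, and 38.5% to 47.2% in HF + LP, so every HF mouse lay below every NP mouse. The part of these markers and of the mitochondrial share in the members' differences was not tested.

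**Figure D2:**
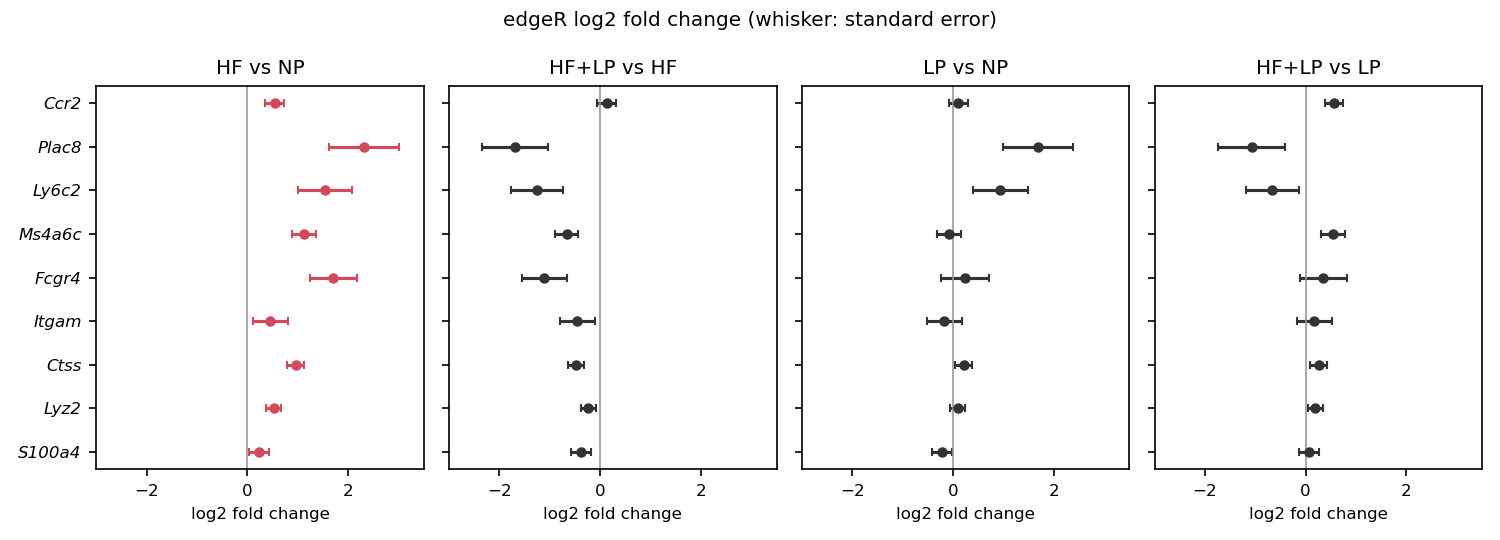
Log2 fold change (horizontal axis) with its standard error for the 9 tested genes in 4 comparisons; HF vs NP, in red, is the comparison used in choosing genes. Points lie right of 0 for all genes in HF vs NP and left of 0 for all but Ccr2 in HF+LP vs HF.

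Low protein at normal fat (LP compared to NP) shares the NP mice with the comparison used in choosing genes. The median over the 9 members was 0.11 against 0.02 over all genes, with 6 members higher and 3 lower. Plac8 had the largest value, 1.69 (standard error 0.70), and Ly6c2 had 0.94 (0.54), while Ctss had 0.21 (0.16) and Ms4a6c had −0.08 (0.24). No member was called, nor was any gene (0.0%), by edgeR, and DESeq2 called no member and 4 genes. At an unadjusted p under 0.05 edgeR had 1 member, Plac8, and 1012 genes. Without LP mice 13 and 20, left out after their values were seen, Plac8 was at −0.12, Ly6c2 at 0.24, Ctss at −0.07, Ccr2 at −0.11 instead of 0.11, and Fcgr4 at −0.28 instead of 0.24. Without LP mouse 20 alone, Plac8 was at 0.73 and Ly6c2 at 0.13. LP mouse 20 alone carried the high lymphocyte sum beside its Plac8 and Ly6c2 counts, while LP mice 13 and 20 had the 2 highest adipocyte sums of all mice, 11196 and 3344. All 7 adipocyte markers were higher in LP than in NP, with a median of 2.302 and 3 at an unadjusted p under 0.05. All 6 tested lymphocyte markers were higher, with a median of 1.43 and 5 at that p. The 3 tested neutrophil markers were all higher, with a median of 0.99 and 3 at that p. All 5 erythroid markers were higher, with a median of 0.61 and 1 at that p. None of these markers was called. The part of these cell types in the Plac8 and Ly6c2 counts was not tested.

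High fat at low protein (HF + LP compared to LP) takes its fold changes from mice other than those whose values chose Ctss and Ms4a6c, while the spread behind its standard errors, intervals, and adjusted p-values was estimated over all 4 groups. Ccr2 had the smallest adjusted p of the members, at a log2 fold change of 0.56 (standard error 0.19, 95% interval 0.19 to 0.93, edgeR adjusted p = 0.157). It did not pass the threshold, and its adjusted p ranged from 0.0918 to 0.865 over the alternative settings. With only LP and HF + LP mice in the fit, Ccr2 stood at 0.56 (edgeR adjusted p = 0.435) and no gene was called. Ccr2 was the 1 member with all 5 HF + LP mice above all LP mice, where 0.915% of all genes were. Ms4a6c followed at 0.54 (0.23, edgeR adjusted p = 0.260), with 4 of 5 HF + LP mice above all LP mice. Ctss had 0.26 (0.16), with an interval from −0.06 to 0.58, which holds 0. Its highest LP values, 403 and 443, were those of LP mice 13 and 20, which stood apart as whole libraries. LP mice 2, 5, and 15 lay below every HF + LP mouse. The fold change of Ctss ran from 0.16 to 0.37 with each mouse left out and reached 0.70 under another alternative. Fcgr4, Lyz2, Itgam, and S100a4 had 0.35, 0.19, 0.17, and 0.07.

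Plac8 and Ly6c2 pointed the other way in HF + LP compared to LP, at −1.07 (standard error 0.66) and −0.66 (0.53). Without LP mouse 20 alone they were at −0.12 and 0.14, and without LP mice 13 and 20 at 0.73 and 0.03. The direction of Ly6c2 thus rested on LP mouse 20, and that of Plac8 turned when both mice were left out. All 7 adipocyte markers were lower in HF + LP than in LP, with a median of −4.78, 7 of 7 at an unadjusted p under 0.05 and none called, and their part in the members' differences was not tested. Of the 9 members 7 were higher and 2 lower, with a median of 0.19 against −0.03 over all genes. No member was called, and 14 genes were (0.1%), by edgeR. DESeq2 called no member and 84 genes. At an unadjusted p under 0.05 edgeR had 2 members, Ccr2 and Ms4a6c, and 2227 genes.

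Against NP, HF + LP mice had higher Ccr2 by 0.67 (standard error 0.19) and higher Ctss by 0.47 (0.16), and in both genes all 5 HF + LP mice lay above all NP mice, as in 0.965% of all genes. Neither was called (edgeR adjusted p = 0.236 for Ccr2, the smallest of the members), while 4 genes, or 0.0286%, were, and DESeq2 called 31 genes and no member. In the same comparison all 5 erythroid markers were higher, with a median of 0.87 and 4 of 5 at an unadjusted p under 0.05. All 6 tested lymphocyte markers were higher, with a median of 0.83 and 1 of 6 at that p. All 3 tested neutrophil markers were higher, with a median of 1.08 and 2 of 3 at that p. None of these markers was called, and their part in the Ccr2 and Ctss differences was not tested. The interaction of fat and protein compares the low-protein effect at high fat with that at normal fat. It was −3.38 (0.96) for Plac8, −2.19 (0.75) for Ly6c2, −0.70 (0.23) for Ctss, and 0.02 (0.27) for Ccr2 on the log2 scale. Without LP mice 13 and 20 these were −1.58, −1.51, −0.42, and 0.23, and without LP mouse 20 alone Plac8 was at −2.43 and Ly6c2 at −1.39. No member and no gene (0.0%) was called for it by edgeR, 3 members and 1003 genes had an unadjusted p under 0.05, and DESeq2 called 1 gene and no member. The smallest adjusted p of a member was 0.614, for Plac8, and the effects of protein at the 2 fat levels were therefore not shown to differ.

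The ligands of CCR2 were read beside it, though they lie outside the rule for named genes and their values had been seen. Ccl2 had normalized counts of 22.8 ± 4.81 (NP), 24.0 ± 7.32 (LP), 52.5 ± 37.2 (HF), and 32.0 ± 11.6 (HF + LP), as mean and SD over 5 mice. Ccl12 had 16.8 ± 3.56, 18.5 ± 7.95, 65.5 ± 43.2, and 19.7 ± 9.78 in the same order. Ccl7 had 30.0 ± 14.8, 27.0 ± 5.22, 68.7 ± 50.4, and 31.1 ± 16.4. The group means of all 3 ligands were highest in HF, with the widest SD there, whereas the group mean of Ccr2 was highest in HF + LP. Their base means were 32.8 for Ccl2, 39.2 for Ccl7, and 30.1 for Ccl12, so none of the 3 could be called at any p. In HF compared to NP the log2 fold change of Ccl12 was 1.99 (standard error 0.46, edgeR adjusted p = 0.0341). Those of Ccl2 and Ccl7 were 1.2245 (0.46, edgeR adjusted p = 0.223) and 1.2236 (0.48, edgeR adjusted p = 0.250).

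Other lists of myeloid genes were compared with the members by their counts and medians, and there too a gene with a base mean under 50 could not be called. Of 21 tested genes of other monocyte markers, 20 were higher in HF than in NP and 18 were lower in HF + LP than in HF, with medians of 0.43 and −0.35, and none was called in any comparison. Among them Ifitm3, an interferon-induced membrane protein, had 4639 ± 1095 (NP), 7569.7 ± 2599.6 (HF), and 3897 ± 419 (HF + LP), as mean and SD. All 17 tested genes of resident macrophages were higher in HF and lower in HF + LP, with medians of 0.40 and −0.40, and none was called. The complement genes C1qa and C1qb, which resident macrophages express strongly, differed by 0.35 (standard error 0.31) and 0.58 (0.19) in HF compared to NP. All 25 genes shared by myeloid cells were higher in HF and lower in HF + LP, with medians of 0.56 and −0.36 and none called. Both comparisons share the HF mice.

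A total of 16 recruitment genes had a median of 0.50 in HF compared to NP and −0.33 in HF + LP compared to HF, and the chemokine Ccl8, at 82.6 ± 16.5 in NP and 221 ± 34.9 in HF (SD, n = 5), was the one called, in HF compared to NP. A further 15 genes of lipid-laden or inflammatory macrophages had medians of 0.30 and −0.29, and the chemokine Ccl6 was the one called, in HF compared to NP. In HF + LP compared to LP the medians of these 5 lists lay between −0.25 and −0.05, and that of the members was 0.19, against −0.03 over all genes. Shared myeloid genes summed to 7034 normalized counts in LP mouse 20, against 2562.5 to 3917 in the other LP mice. LP mouse 13 had the highest LP sums of resident (10389) and of lipid-laden or inflammatory (19498) macrophage genes. The lists were not refitted without LP mice 13 and 20, so their part in these medians was not tested. The 23 interferon-induced genes had medians of 1.25 in HF compared to NP and −1.33 in HF + LP compared to HF, and Phf11b was the one called, in the first. In HF + LP compared to LP their median was 0.31, with 19 of 23 higher, so it lay above that of the members. Of 12 neutrophil markers 3 were tested, and Ly6g, Mpo, and Elane were not among the genes analysed. The 3 tested markers were all higher in HF than in NP, each with unadjusted p below 0.05. Their median was 1.06, against 0.95 for the members. Between HF + LP and HF their median was −0.02, with 1 higher and 2 lower. None was called, and their part in the members' differences was not tested. S100a8, a neutrophil and monocyte alarmin, had 43.6 ± 16.1 (NP), 87.85 ± 54.9 (LP), 90.5 ± 40.6 (HF), and 91.9 ± 33.2 (HF + LP), and its HF + LP compared to HF difference was 0.02 (standard error 0.39).

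**Figure D3:**
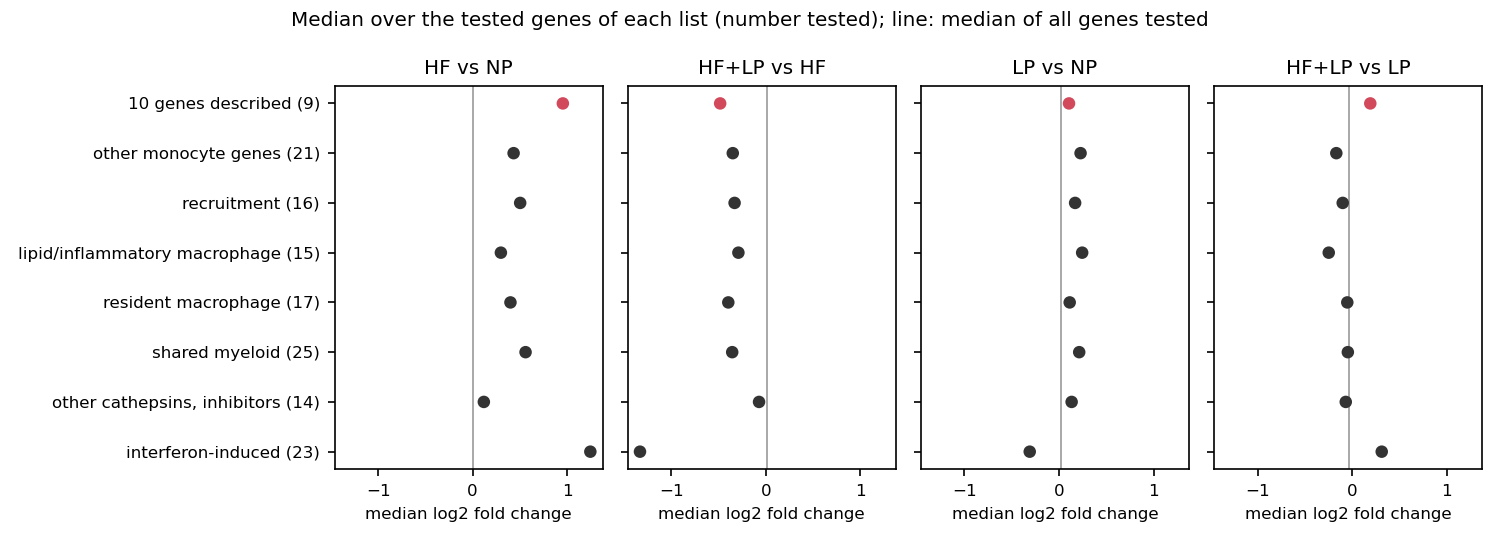
Median log2 fold change (horizontal axis) over the tested genes of each list, with their number in brackets, in 4 comparisons; the 10 genes described are red and the grey line is the median of all genes. Among the lists plotted, the interferon-induced one lies farthest from the line in HF vs NP (1.25) and HF+LP vs HF (−1.33), and the members (0.19) and the interferon-induced genes (0.31) lie on the positive side in HF+LP vs LP.

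Ctss was read beside the other cathepsin genes, most of which act in lysosomes of many cell types. The list of 14 tested cathepsins, partners, and inhibitors had medians of 0.12 in HF compared to NP and −0.07 in HF + LP compared to HF, with none called in any comparison. Ctsd and Ctsb were far more abundant than Ctss, with base means of 14124 and 3847 against 395, and differed by 0.19 (standard error 0.14) and 0.12 (0.12) in HF compared to NP. Ctsz and Ctsc, which myeloid cells also express, differed by 0.40 (0.13) and 0.38 (0.17), Ctsl by 0.32 (0.20), Ctsh by 0.10 (0.14), and Ctsa by −0.0040 (0.11). Cd74, the invariant chain that cathepsin S cuts, lies outside the rule for named genes. Its group means were in another order than those of its protease, at 1148 ± 270.5 (NP), 1660.5 ± 884 (LP), 1095.5 ± 273 (HF), and 1061 ± 366 (HF + LP). The highest LP values of Cd74, 2776 and 2147, were those of LP mice 13 and 20, which stood apart as whole libraries. Cst3, the secreted inhibitor cystatin C, differed by 0.10 in HF compared to NP and by −0.04 in HF + LP compared to HF.

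**Figure D4:**
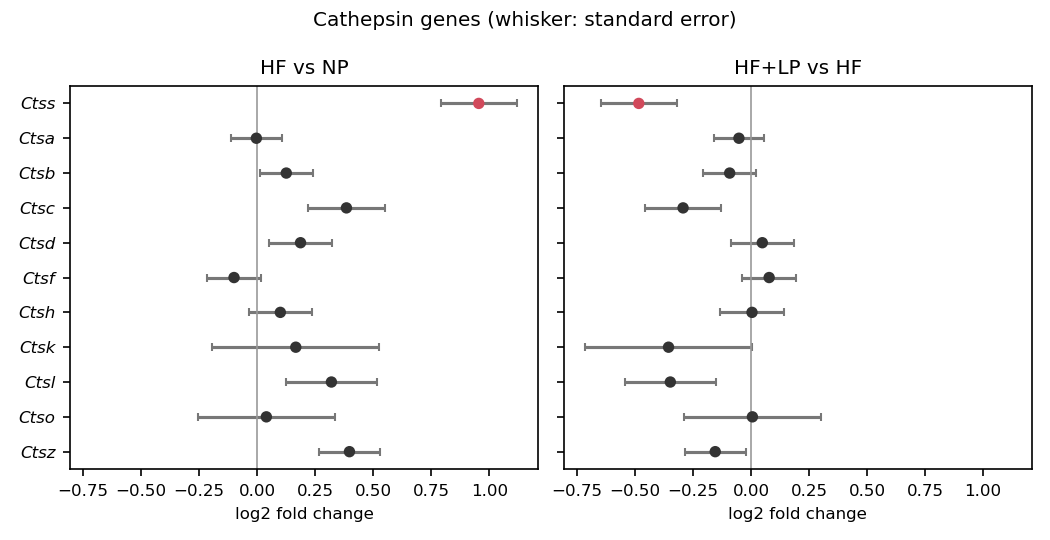
Log2 fold change with its standard error (horizontal axes, same scale) of Ctss, in red, and the other tested cathepsin genes. Ctss lies at 0.95 in HF vs NP and at −0.48 in HF+LP vs HF, and the other genes lie between −0.10 and 0.40 in the first.

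Within diets, the members differed in how closely they moved with each other. The Pearson correlation of log2 CPM, reads scaled to library size, over the 20 mice, after each diet's mean was subtracted, was 0.83 for Ctss with Fcgr4, 0.81 for Ctss with Plac8, and 0.78 for Plac8 with Ly6c2. It was 0.79 for Lyz2 with S100a4, while Ccr2 with S100a4 was at 0.0011 and Lyz2 with Ly6c2 at 0.02. Lyz2 was instead close to C1qa, at 0.82. These are descriptions over mice that share diets and differ in tissue makeup. Irf7, a transcription factor of interferon responses, was read beside the members. It had 208.5, 479, 1219, 1325, and 1463 normalized counts in HF mice 1, 3, 2, 5, and 4, and 101 to 319 in HF + LP. HF mice 2, 4, and 5, the highest for Irf7, were those with the highest Ctss and Fcgr4, and HF mouse 1 had the lowest of all 3 genes in its group. Ccr2 with Irf7 was at 0.80 within diets, although Ccr2 was high in HF + LP mice whose Irf7 was low.

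**Figure D5:**
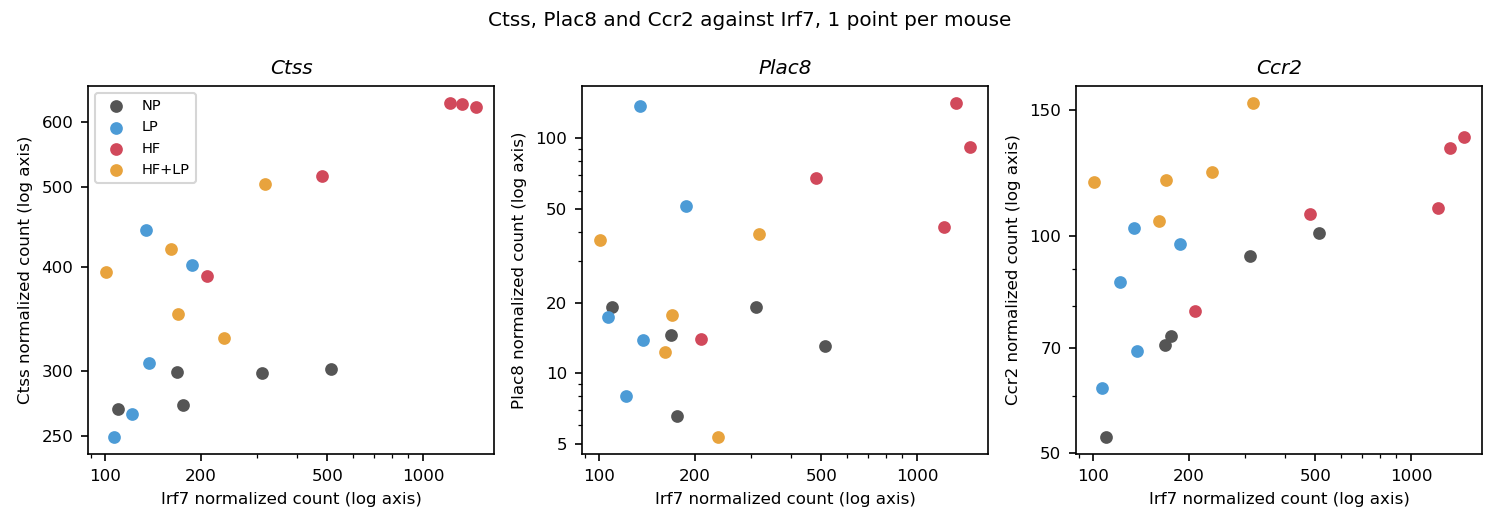
Normalized counts of Ctss, Plac8, and Ccr2 (vertical log axes) against Irf7 (horizontal log axis) in each of the 20 mice, coloured by diet. The 3 HF mice with Irf7 of 1219 to 1463 have the highest Ctss, and HF + LP mice lie high for Ccr2 at Irf7 of 101 to 319.

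The genes most like Ctss over the 20 mice, among 10154 genes with a base mean over 50, were Tyrobp, an adapter of activating receptors (Pearson r = 0.900), Alox5ap, which is needed for leukotriene synthesis (0.882), Ccl6 (0.878), Ifi27l2a (0.876), and Shisa5 (0.875). With diet means removed they had 0.78, 0.65, 0.58, 0.83, and 0.75, the lowest for Ccl6 and the highest for Ifi27l2a. The genes most like the mean of the other tested members were Ms4a6b (0.917), Ifi47 (0.898), Ifi27l2a (0.883), Lcp1 (0.867), and Tyrobp (0.865).

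Close copies set a limit on some of these counts, since how reads from near-identical stretches were assigned is not given in the sources used here. In the last 500 bases of the transcripts, 23.2% of the 75-base stretches of Ly6c2 also occur in Ly6c1, 7.04% of those of Lyz2 in Lyz1, and 5.16% of those of Ms4a6c in Ms4a6b. For S100a4 and Itgam, 44.8% and 18.3% are shared with the overlapping models Gm42674 and Gm49368. Ctss, Ccr2, Plac8, and Fcgr4 shared none. Ly6c1, which endothelial cells express, had 1184 to 2972 normalized counts over the 20 mice, against 6.36 to 61.7 for Ly6c2. Lyz1 had 11.5 to 69.2, far below Lyz2. Ms4a6b had 47.0 to 137 in HF and 51.3 to 82.7 in HF + LP, with 38.5 to 68.2 in NP. Fcgr1, another activating Fc receptor, had 30.8 ± 6.14 in NP, 74.0 ± 30.0 in HF, and 36.3 ± 7.13 in HF + LP, an order of group means like that of Fcgr4. The Fc receptor Fcgr3 had 200 ± 9.87 in NP, 288 ± 41.1 in HF, and 192 ± 40.0 in HF + LP. Fcgr2b had 65.3 ± 20.8, 103 ± 23.1, and 63.9 ± 10.5. Both had their lowest group mean in HF + LP, an order unlike that of Fcgr4.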

How the data were processed

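RNA from the left ventricle of 20 mice was sequenced by the authors from QuantSeq 3′ libraries with 75-bp reads and aligned with BlueBee software. The deposited values are raw counts of reads for each Ensembl gene in each mouse, without normalization, and the listed gene with the fewest reads had 60 over all mice. The submitters' processing notes name GRCm38 and DESeq2 1.22.2, and the counting program and annotation are not given in the sources used here. Mice are named by diet and the animal number in the labels. The label of LP mouse 5 marks it as a further sample of that animal, and no other sample of it is among the 20. The study's legend for its expression heat maps gives more mice per group than the 5 listed here. The study's methods describe group housing, and which of these mice shared a cage is not given, so p-values measure the spread between these samples.

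Genes kept by filterByExpr, 13991 of 15956, were scaled by TMM and fitted with edgeR 4.0.16 (R 4.3.3), all 4 groups in 1 quasi-likelihood model, two-sided, and p-values were adjusted by Benjamini-Hochberg over these genes. Standard errors came from the F statistic, and 95% intervals from these. Log2 CPM used a prior count of 2. Symbols were found for 15917 genes. Coordinates are those of GENCODE M21 and promoters those of RefSeq, both on GRCm38. The script was tested on simulated data.

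The 10 members, the other gene lists, and the tests were chosen with earlier results of these data known. Named genes were the members, the called genes and up to 4 most abundant genes of each list, close copies and relatives of members (other cathepsins and Fc receptors included), and the nearest 5 genes by Pearson r. Cd74 and the CCR2 ligands were added outside this rule after their values were seen. Alternatives were RLE size factors, DESeq2 1.42.0, other filters and thresholds, the animal number as a block, the library name's number as a covariate, only 2 groups in the fit, and each mouse left out. Leaving out LP mice 13 and 20, or mice with high atrial markers, was added after seeing the data.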

Additional observations from a re-analysis of the deposited data

Results flagged for a closer look

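In LP, Ly6c2 had 61.7 normalized counts in mouse 20, with 10.7 to 19.5 in the other 4 mice, a gap larger than Dixon's critical value for 5 samples (0.71). In HF + LP, Chil3 had 4.48 normalized counts in mouse 4, with 1.03 to 1.90 in the others, which is within a few reads of 0. These are 2 of the 40 groups tested for a sample far from the others, and chance alone flags about 1 in 20 groups.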

How the results depend on the processing

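No member was called in HF + LP compared to LP, HF + LP compared to HF, LP compared to NP, HF + LP compared to NP, or the interaction under any alternative run. In HF compared to NP, 1 member was called and the count ran from 0 to 1 with each mouse left out in turn. It was 0 without NP mouse 3, 4, 5, 6, or 8 or HF mouse 2, 4, or 5. It was 2 at an adjusted p under 0.05, with DESeq2, and without mice of high atrial markers (Ctss and Ms4a6c), and 2 with only the 2 groups in the fit (Ctss and Lyz2).

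Counts over all genes moved more. In HF + LP compared to LP, 14 genes became 45 at an adjusted p under 0.05, 84 with DESeq2, 5 with the library name number as a covariate, 0 with only 2 groups, 4 without LP mice 13 and 20, 2 without high atrial mice, and 1 to 16 with each mouse left out. In HF compared to NP, 37 became 157, 159 with DESeq2, 61 with 2 groups, 76 without LP mice 13 and 20, and 20 to 32 with each mouse left out. In HF + LP compared to NP, 4 became 16, 31 with DESeq2, 7 with at least 10 counts in every library, 2 with 2 groups, 10 without LP mice 13 and 20, 1 without high atrial mice, and 2 to 9 with each mouse left out. In HF + LP compared to HF, 0 became 13 with DESeq2, 18 without high atrial mice, and 0 to 1 with each mouse left out. DESeq2 called 4 genes in LP compared to NP and 1 for the interaction.

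Animal numbers are shared between groups but belong to different mice, and same-numbered mice correlated at −0.553 to 0.476 in their deviations from group means, so the numbers do not pair them. With the animal number as a replicate block, 0 members and 2 genes were called in HF compared to NP, 0 genes in HF + LP compared to LP, and 1 in HF + LP compared to NP. Under the block, Plac8 and Ly6c2 in HF + LP compared to LP were at 0.71 and 0.056.

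Signs also changed under at least 1 alternative, all for uncalled values, in LP compared to NP for Ccr2, Plac8, Ms4a6c, Lyz2, Ctss, Fcgr4, and Itgam, in HF + LP compared to HF for Ccr2, in HF + LP compared to NP for Itgam (10 alternatives), and in the interaction for Ccr2, Ms4a6c, Itgam, and S100a4. In HF + LP compared to LP, Plac8 was at 0.73 and Ly6c2 at 0.027 without LP mice 13 and 20. With each mouse left out, Ly6c2 ran from −0.88 to 0.14 (without LP mouse 20), Itgam from −0.0056 (without LP mouse 5) to 0.33, and S100a4 from −0.040 (without LP mouse 5) to 0.24, with −0.020 without LP mouse 2 and −0.0061 without HF + LP mouse 4. The cause of these changes was not tested. Fcgr4, Ly6c2, Itgam, and Plac8 had base means under 50 and could not be called at any p, and the few reads of Chil3 allow no statement on diet.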
